A study of Arabidopsis thaliana with 18 samples.

Results

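Root apices of the Arabidopsis thaliana ecotype Landsberg erecta (Ler) were compared with those of the ecotype Columbia (Col) 2 h after seedlings were moved to medium without phosphate. The comparison uses 6 of the 18 RNA-seq libraries of the study, the 3 of Ler at 2 h and the 3 of Col at 2 h, chosen by ecotype and time alone. It covers the 32852 features listed for every library, of which 20599 had enough counts to be tested. Ler 2 h apices and Col 2 h apices shared all other conditions that the labels give. Both were wild-type seedlings grown for 7 days over 500 µM phosphate on nylon mesh in a dilute Murashige and Skoog medium, and both were then lifted with the mesh onto medium lacking phosphate. The outermost 0.5 cm or so of the roots was frozen, and poly(A) RNA was read in stranded, paired-end libraries. Ler carries, as its name says, a lesion in the ERECTA receptor kinase gene besides many other sequence differences from Col, so a difference between the ecotypes belongs to no single locus. No 2 h libraries with phosphate were used. Whether an ecotype difference at 2 h is a response to phosphate was therefore not tested. The libraries of both ecotypes at 0 h and 1 h, 3 each, served to ask whether a difference seen at 2 h was there at the earlier times.

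Arabidopsis ecotypes are inbred lines from different places, and their transcriptomes differ in more than level. A gene can be deleted, truncated or silenced in a line, or so altered that reads from it no longer align to the Col reference, and such a gene reads as present in one ecotype and absent from the other. Others are transcribed in both and differ by degree. Glucosinolates, the sulfur-rich defence compounds of the mustard family, are a classic example, because the AOP and MAM loci that set their side chains are known to vary among ecotypes. Phosphate-starvation genes are switched on by PHR1-type transcription factors when SPX proteins no longer hold these back. In the apex a separate, local route through STOP1, ALMT1 and LPR1 slows root growth on low phosphate.

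The 3 Ler libraries at 2 h held 26788281, 24126422 and 23755413 counts and the 3 Col libraries at 2 h held 27820009, 24533746 and 25911691. Levels are given as CPM, counts scaled to a common library size and differences as log2 of Ler over Col ± the standard error of the model (SE). A difference is called where its adjusted p is below 0.05 in edgeR's quasi-likelihood test with Benjamini-Hochberg adjustment. Spearman correlations across features were 0.978 to 0.988 among the Ler libraries and 0.982 to 0.989 among the Col libraries, against 0.939 to 0.959 between the ecotypes. Apices with a different share of a cell type and apices with less RNA per cell of that type cannot be told apart in such bulk libraries. Summed marker levels overlapped between the ecotypes for root cap (40.5 to 64.0 CPM in Ler, against 47.6 to 55.0 CPM in Col), root hair cells (436 to 738 CPM in Ler, against 553 to 613 CPM in Col) and endodermis (351 to 694 CPM in Ler, against 540 to 670 CPM in Col). Meristem markers summed to 129.6 to 141.0 CPM in Ler, against 141.3 to 168.8 CPM in Col. Phloem markers summed to 39.6 to 52.9 CPM in Ler, against 28.5 to 39.3 CPM in Col. The ecotypes thus did not overlap for these markers, by a narrow margin, and their part in other differences was not tested. The labelled tissue was thus seen in all 6 libraries, while summed shoot and leaf markers stayed at 25.6 to 60.1 CPM in Ler and 19.1 to 34.9 CPM in Col.

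Of the tested features, 3250 were called (15.8%), 1765 higher in Ler (8.57%) and 1485 lower in Ler (7.21%). With replicate numbers as a block, which pairs same-numbered libraries, 5300 were called (25.7%), 2867 higher and 2433 lower, and these held all 3250. The called features were of 2 kinds. On/off features numbered 182, with at most 3 counts in each library of an ecotype and at least 1 CPM in each library of the other. By this rule 74 were present in Ler alone (0.225% of those listed) and 108 in Col alone (0.329%). The word alone thus allows a few counts. Only 25 of the 74 and 64 of the 108 had 0 counts in all 3 libraries of the other ecotype. The other 3068, every call outside the on/off rule, were termed graded, 1691 higher in Ler and 1377 lower. The term thus also covers features at or near 0 counts in an ecotype that miss the rule. The median absolute log2 difference of all graded features was 1.06, against 0.26 over all tested features. At least 2-fold differences were held by 1629 graded features (53.1%), 1044 higher and 585 lower. The 3 Ler and 3 Col libraries did not overlap for 3045 of the graded features (99.3%), against 33.5% of all tested. Lack of overlap, stated below for single genes, is thus near automatic for called ones and adds no support to a call. Without Ler library 3 the features called lower numbered 959.

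**Figure D1:**
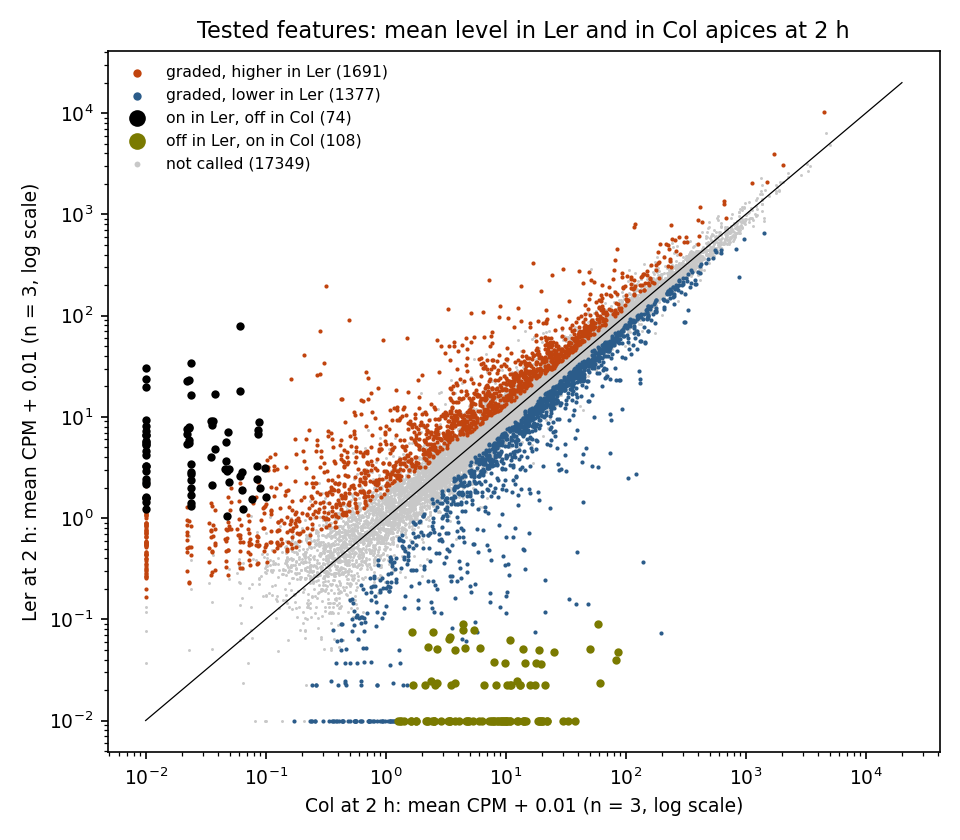
Each point is a tested feature, with its mean level in the 3 Ler libraries on the vertical axis and in the 3 Col libraries on the horizontal axis (CPM + 0.01, log scales). Grey points did not pass the test, coloured points are graded features higher or lower in Ler, and the on/off features (74 in Ler, 108 in Col) line the axes' low ends.

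On/off features were read from their raw counts. Among the protein-coding features present in Ler alone, AT1G24388, an uncharacterised protein gene, had the highest mean, 34.1 ± 6.59 CPM (SD, n = 3). It drew 854, 1033 and 653 counts in Ler, against 0, 1 and 0 counts in Col, a ratio of summed depth-scaled counts of 2666 (95% counting interval 478 to 105344). PRA1.A3, a prenylated Rab acceptor of vesicle traffic, had 730, 884 and 660 counts in Ler and no count in any Col library at 2 h, which puts it at least 264-fold higher, taking 3 counts per library as the floor. Both genes were thus well covered in every Ler library and had at most 1 count in any Col library. By the same floor AT5G53070, a protein with L9 and RNase H1 domains, was at least 202-fold higher (608, 702 and 435 counts in Ler, 0 in each Col library). AT4G19240, uncharacterised, was at least 168-fold higher (492, 626 and 336 counts in Ler, 0 in each Col library). AT4G12280, a copper amine oxidase family gene, drew 518, 383 and 355 counts in Ler and 0, 2 and 0 in Col, a ratio of 659 (182 to 5449).

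Present in Col alone, AT3G61010, a ferritin or ribonucleotide reductase-like gene, had 0 counts in all 3 Ler libraries and 875, 869 and 824 in Col, and was at least 272-fold lower in Ler. NAC001, the NAC transcription factor at the start of chromosome 1, had 0 counts in Ler and 886, 753 and 712 in Col, at least 248-fold lower in Ler. Its neighbour AT1G01020 was also present in Col alone. ASY2, a HORMA-domain gene related to the meiotic axis protein ASY1, had 0 counts in Ler and 637, 593 and 477 in Col, at least 180-fold lower in Ler. It did not meet the on/off rule at 0 h. AT2G34840, a coatomer epsilon subunit, drew 1, 0 and 0 counts in Ler and 576, 505 and 578 in Col (ratio of Col to Ler 1581, 283 to 62466). AT5G28919, uncharacterised, drew 1, 1 and 0 counts in Ler and 527, 501 and 510 in Col (ratio of Col to Ler 733, 202 to 6055). In none of these 10 genes did a library of the absent ecotype exceed 2 counts, where the rule allowed 3.

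The 2 on/off groups differed in make-up from the tested features, 96.8% of which are protein-coding and 1.78% pseudogenes. Of the 74 present in Ler, 45 were protein-coding, 28 pseudogenes (37.8%) and 1 noncoding. Of the 108 present in Col, 61 were protein-coding, 35 pseudogenes (32.4%), 11 noncoding and 1 unmatched to RefSeq. Retroelement-derived loci were among the highest, with SADHU1-1 at 82.6 CPM and SADHU1-2 at 37.8 CPM in Col, both off in Ler. Near-identical copies elsewhere in the reference, which can take or share reads, were found for 9 of 74 Ler-only features (12.2%) and 14 of 107 Col-only ones (13.1%), against 1.6% of tested features. Directly adjacent loci accounted for 13 pairs, none longer than 2 features. Examples are the F-box genes AT5G56370 and AT5G56380 in Col, and in Ler the disease resistance gene AT5G46490 with AT5G46500. Looser groups of nearby loci were not counted as runs. AT4G01910, AT4G01920 and AT4G01930, all of the cysteine/histidine-rich C1 domain family, were each present in Col alone. Most on/off features were not particular to 2 h. Of the 74, 51 met the same rule at 0 h and 1 h as well, as did 81 of the 108. None met it in the opposite direction. At the edges of the rule, AT1G36600 was just inside with 1.00 CPM in its lowest Ler library and AT1G35617 just outside with 0.985 CPM, while in Col AT3G62725 was inside with 1.01 CPM and AT2G27402 outside with 0.996 CPM.

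Graded features with the largest differences were close to off in the lower ecotype. AT5G45430, a protein kinase gene, measured 191, 193 and 209 CPM in Ler, against 0.216, 0.166 and 0.538 CPM in Col (log2 difference 9.30 ± 0.34, adjusted p = 5.42e-11). AT4G19770, a chitinase-like glycosyl hydrolase gene, stood at 43.0, 31.6 and 48.7 CPM in Ler, against 0.108, 0.291 and 0.192 CPM in Col (log2 difference 7.69 ± 0.54). AT4G12170, a thioredoxin superfamily gene, had 96.2, 65.0 and 109.7 CPM in Ler, against 0.180, 1.08 and 0.192 CPM in Col (log2 difference 7.58 ± 0.62). These genes were picked for large differences without overlap, so their separation was fixed in advance. OSM34, an osmotin-like defence protein, was high in Ler but spread widely, with 57.8, 2.24 and 10.6 CPM in Ler, against 0.216, 0.125 and 0.115 CPM in Col (log2 difference 7.22 ± 1.66, adjusted p = 0.00705). The set was completed by AT1G24370, with 1 near-identical copy, at log2 difference 7.99 ± 0.34, and by the retroelement SADHU6-1 at log2 difference 6.83 ± 0.29. As each library was left out, the values were 9.05 to 9.97 for AT5G45430, 7.17 to 8.90 for AT4G12170 and 5.35 to 7.76 for OSM34, the last being lowest without Ler library 1.

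In the other direction AT5G23830, which encodes a lipid-recognition protein of the MD-2 type, had 0.189, 0 and 0 CPM in Ler, against 140.5, 199 and 254 CPM in Col (log2 difference -11.42 ± 0.65, adjusted p = 5.41e-09). HSD2, a hydroxysteroid dehydrogenase gene, had 0.227, 0.0800 and 0.0880 CPM in Ler, against 34.9, 43.0 and 38.7 CPM in Col (log2 difference -8.12 ± 0.38, adjusted p = 6.09e-10). Both sat below 1 CPM in every Ler library and far above it in every Col library. AT2G25450, described with the glucosinolates, was at log2 difference -8.58 ± 0.45, AT3G30214 at log2 difference -8.45 ± 0.34, the lipid-transfer protein gene AT1G62510 at log2 difference -7.93 ± 0.79 and AT3G59710, of the Rossmann-fold superfamily, at log2 difference -7.77 ± 1.09. Without Ler library 1, AT5G23830 is at 0 counts in Ler. As each library was left out, HSD2 was at -8.77 to -7.86, AT1G62510 at -9.40 to -7.36 and AT3G59710 at -8.30 to -6.89.

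A subgroup of 2184 graded features (71.2%) reached at least 1 CPM in all 6 libraries, so that both ecotypes transcribed them. This subgroup was defined after the values had been seen. It divided into 1118 higher and 1066 lower in Ler, with a median absolute log2 difference of 0.77, against 2.88 for the 884 other graded features. At least 4-fold differences were held by 108 higher and 54 lower members. Of those higher in Ler, AT3G29410, a terpenoid cyclase gene, had 208, 179 and 287 CPM in Ler, against 6.74, 7.84 and 7.34 CPM in Col (log2 difference 4.94 ± 0.34, adjusted p = 4.77e-08). A second terpenoid cyclase gene, AT1G70080, had 52.8, 72.7 and 46.3 CPM in Ler, against 2.92, 2.45 and 2.57 CPM in Col (log2 difference 4.43 ± 0.30). AT5G24240, a phosphatidylinositol 4-kinase gamma-like gene, had 99.4, 95.7 and 119.7 CPM in Ler, against 5.01, 4.77 and 5.53 CPM in Col (log2 difference 4.36 ± 0.20). These 3 genes were named for their large differences, so their lack of overlap is no separate result. The others in this direction were AT3G26460, a polyketide cyclase-like gene (log2 difference 4.30 ± 0.57), the bHLH gene AT1G29950 (log2 difference 4.10 ± 0.50, or 3.79 to 4.90 as each library was left out) and AT3G45080 (log2 difference 4.07 ± 0.21).

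Lower in Ler with expression in both, SQP2, a squalene monooxygenase acting at the entry to sterols and triterpenes, had 1.48, 1.64 and 4.29 CPM in Ler, against 84.6, 115 and 114 CPM in Col (log2 difference -5.42 ± 0.39, adjusted p = 6.66e-08). AT2G43590, a chitinase family gene, had 5.23, 1.08 and 1.84 CPM in Ler, against 189, 58.8 and 116 CPM in Col (log2 difference -5.47 ± 0.87, adjusted p = 3.42e-04). DAR4, a resistance-type protein of the DA1 family, had 4.36, 2.12 and 4.29 CPM in Ler, against 44.4, 37.5 and 47.6 CPM in Col (log2 difference -3.59 ± 0.23). They were likewise named for large differences, so the lack of overlap in each is no separate result. Also lower were AT5G28350, with 1 near-identical copy (log2 difference -4.21 ± 0.17), the dirigent-like gene AT4G11210 (log2 difference -4.08 ± 0.33) and AT4G20480 (log2 difference -4.00 ± 0.32). As each library was left out, SQP2 was at -6.07 to -5.14 and AT2G43590 at -6.37 to -4.99.

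Pathways were read through 25 lists of 394 genes, of which 369 were tested and 58 called (15.7%, near the 15.8% of all tested features), 37 higher and 21 lower in Ler. The block fit called 93. The lists were chosen with earlier results of these data known. A list share above that of all tested features is therefore a description and no independent support.

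Aliphatic glucosinolate synthesis differed at the AOP locus, which decides how the side chain is finished, and at AT2G25450. Of 17 tested genes 4 were higher and 2 lower (35.3% called, against 15.8% of all tested), with a median log2 difference of 0.37. AOP3, the enzyme that makes hydroxyalkyl side chains, had 7.99, 7.13 and 8.10 CPM in Ler, against 0, 0 and 0.0380 CPM in Col, with 574 counts in Ler against 1 count in Col (ratio 602, 108 to 23838, adjusted p = 1.27e-08). AOP2, its neighbour, makes alkenyl side chains and is known to be inactive in Col. It drew 1 count in Ler and 47 in Col, a ratio of Col to Ler of 44.8 (7.65 to 1806, adjusted p = 0.00222), and its highest library had 1.04 CPM. AOP1, the third gene of the locus, had 4.24, 6.25 and 7.83 CPM in Ler, against 1.84, 1.70 and 1.84 CPM in Col (log2 difference 1.76 ± 0.35, adjusted p = 0.00249). AT2G25450, the 2-oxoglutarate-dependent dioxygenase known as GSL-OH, which hydroxylates alkenyl glucosinolates, had 0.568, 0.281 and 0.219 CPM in Ler, against 193, 88.7 and 139 CPM in Col (log2 difference -8.58 ± 0.45, adjusted p = 2.16e-09). At 0 h and 1 h it was lower in Ler by log2 differences of -9.10 and -10.07.

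The S-oxygenase FMO GS-OX4 had 205, 356 and 381 CPM in Ler, against 183, 146 and 161 CPM in Col (log2 difference 0.94 ± 0.24, adjusted p = 0.0129), and FMO GS-OX3 was higher at log2 difference 1.78 ± 0.54 (adjusted p = 0.0337). The FMO GS-OX3 call was lost without Ler library 2 or without Col library 3 (adjusted p up to 0.149). The FMO GS-OX4 call was lost without Ler library 3 or without Col library 2 (adjusted p up to 0.0694). MAM1, the chain-elongation enzyme at the other locus known to vary, had 3.11, 1.04 and 0.569 CPM in Ler, against 7.57, 4.19 and 1.34 CPM in Col. The ecotypes overlapped and MAM1 did not pass at 2 h (log2 difference -1.46 ± 0.72, adjusted p = 0.195), whereas it was lower in Ler at 0 h (log2 difference -2.91, adjusted p = 0.0152).

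Indolic glucosinolates start from tryptophan through CYP79B2 and CYP79B3. These were the 2 of 16 tested genes that passed, both higher in Ler (list median 0.06). They are 12.5% of the list, against 15.8% of all tested called in either direction and 8.57% called higher. CYP79B3 had 139, 57.9 and 81.9 CPM in Ler, against 35.8, 32.9 and 27.5 CPM in Col (log2 difference 1.53 ± 0.45, adjusted p = 0.0278). CYP79B2 had 171, 99.9 and 137 CPM in Ler, against 55.6, 62.2 and 53.3 CPM in Col (log2 difference 1.25 ± 0.39, adjusted p = 0.0397). Neither gene overlapped between the ecotypes, but both calls rested on all the libraries except Ler 2. The CYP79B3 call was lost without Ler libraries 1 or 3 or without Col libraries 1, 2 or 3 (adjusted p up to 0.125). The CYP79B2 call was lost without Ler libraries 1 or 3 or without Col libraries 1, 2 or 3 (adjusted p up to 0.122).

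Glucosinolates are broken down by myrosinases when tissue is damaged, and specifier proteins direct the product towards nitriles or epithionitriles. The ER body is the root compartment that stores the beta-glucosidase PYK10. Of 14 tested genes of breakdown and of the ER body, 6 were higher and 1 lower in Ler. These are 50% of the list, against 15.8% of all tested (median 0.57). PYK10 had 8464, 8647 and 13446 CPM in Ler, against 3981, 4195 and 5156 CPM in Col (log2 difference 1.197 ± 0.20, adjusted p = 5.43e-04). NAI1, the bHLH factor needed for ER bodies, had 150.0, 219 and 230.4 CPM in Ler, against 61.9, 57.2 and 70.4 CPM in Col (log2 difference 1.66 ± 0.27, adjusted p = 3.75e-04). NAI2, an ER body component, had 1571, 2266 and 2313 CPM in Ler, against 866, 1329 and 1209 CPM in Col (log2 difference 0.85 ± 0.22, adjusted p = 0.0125). For PYK10 and NAI1 every Ler library lay above every Col library, and so it was for NAI2. The NAI2 call was lost without Ler library 3 or without Col library 1 (adjusted p up to 0.0658). BGLU21, a close relative of PYK10, did not pass, with 2027, 2759.9 and 2110.1 CPM in Ler, against 969.5, 1626 and 1395 CPM in Col (log2 difference 0.79 ± 0.33, adjusted p = 0.125, and adjusted p = 0.00322 with the replicate block).

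The nitrile specifier genes did not move as a group. NSP1 had 934, 1109 and 1471 CPM in Ler, against 389.8, 504 and 363 CPM in Col (log2 difference 1.48 ± 0.27, adjusted p = 0.00127), and NSP4 had 497, 488 and 529 CPM in Ler, against 212, 259 and 184 CPM in Col (log2 difference 1.21 ± 0.25, adjusted p = 0.00310). NSP3 was lower in Ler, with 4.21, 10.5 and 3.59 CPM in Ler, against 28.7, 58.2 and 27.5 CPM in Col (log2 difference -2.64 ± 0.57, adjusted p = 0.00462). The NSP3 difference was -3.28 to -2.18 as each library was left out. The epithiospecifier ESP drew 70 counts over the Ler libraries and 1 over the Col libraries (ratio 73.5, 12.8 to 2943, adjusted p = 8.44e-04), at no more than 1.25 CPM. ESM1, an epithiospecifier modifier, was lower in Ler with the replicate block (adjusted p = 0.0460) but did not pass without it (log2 difference -2.02 ± 0.70, adjusted p = 0.0656), and its highest library had 0.664 CPM.

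**Figure D2:**
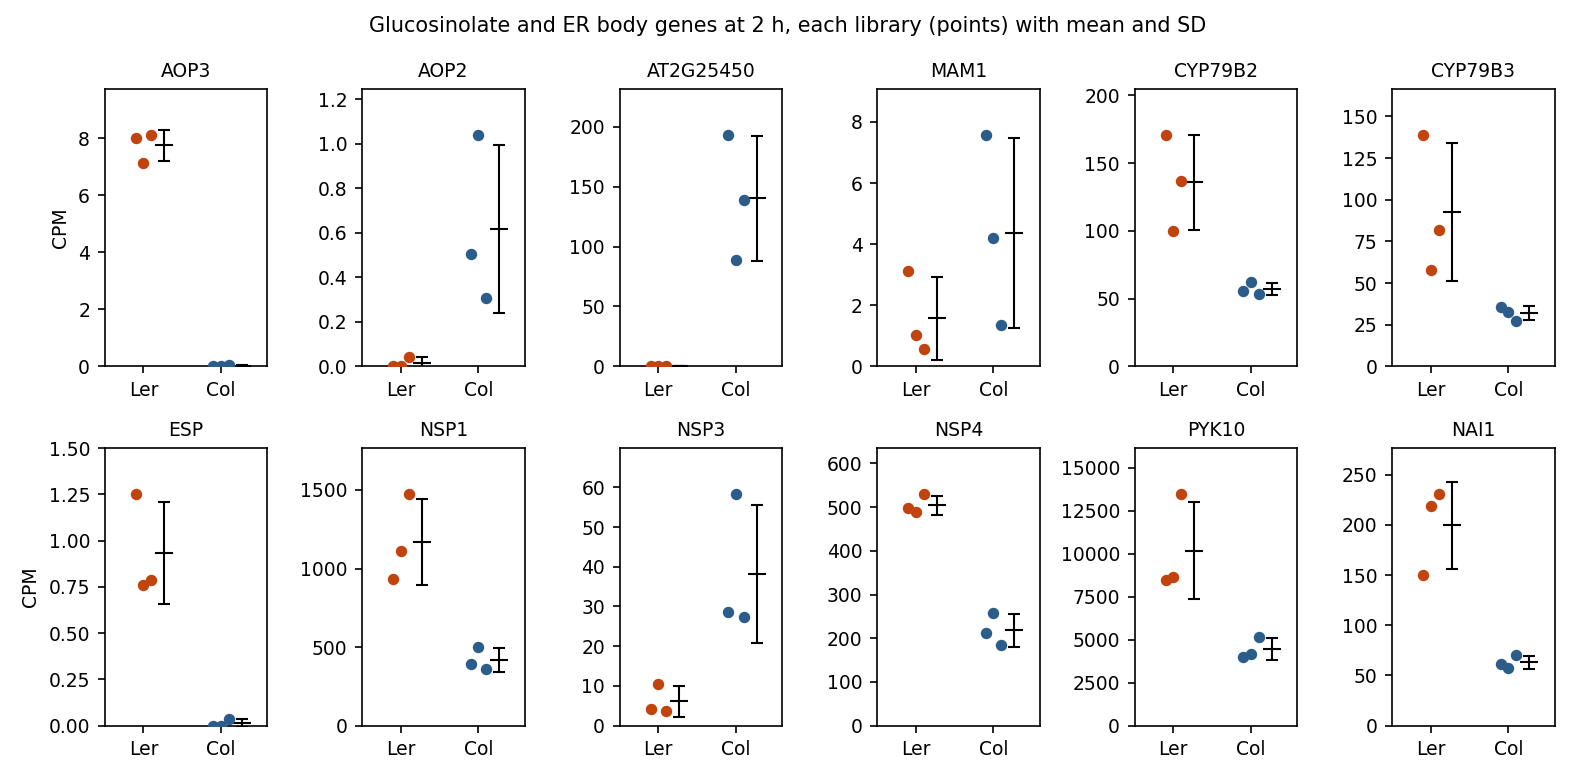
Levels in CPM of 12 glucosinolate and ER body genes at 2 h, with Ler left of Col, a point for each of the 3 libraries and the mean with its SD beside them. AOP3 and ESP are near 0 in Col, AT2G25450 is near 0 in Ler, and MAM1 is the panel whose difference did not pass.

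Other defence chemistry was read through smaller lists. Thalianol and marneral are root triterpenes made by small gene clusters, and 2 of 8 tested cluster genes were higher and 1 lower in Ler (37.5% called, against 15.8% of all tested, median 0.38). The thalianol genes THAS1, the synthase, and CYP708A2 (THAH), the hydroxylase, moved together. THAS1 had 576, 469 and 734 CPM in Ler, against 286, 315 and 229 CPM in Col (log2 difference 1.101 ± 0.26, adjusted p = 0.00834) and CYP708A2 had 511, 332 and 535 CPM in Ler, against 237, 272 and 182 CPM in Col (log2 difference 1.00 ± 0.25, adjusted p = 0.0125). The CYP708A2 call was lost without Ler library 3 or without Col library 3 (adjusted p up to 0.0599). The marneral synthase MRN1 was lower, with 1.89, 3.49 and 3.502 CPM in Ler, against 37.0, 27.2 and 18.9 CPM in Col (log2 difference -3.23 ± 0.38, adjusted p = 1.82e-05). PAD3, the last enzyme of camalexin synthesis, had 0.606, 0.842 and 0.481 CPM in Ler, against 14.7, 9.92 and 9.91 CPM in Col (log2 difference -4.15 ± 0.46, adjusted p = 9.90e-06). It was the 1 gene called among 10 of salicylate and camalexin defence (10%, below the 15.8% of all tested), where 2 were lower without Ler library 3 and the block called 1 higher and 1 lower.

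Cytochrome P450 genes, by their RefSeq names, had 30 higher and 17 lower of 157 tested (29.9% called, against 15.8% of all tested), with a median of 0.25, and the block called 46 higher and 22 lower. CYP71B19 had 10.2, 3.65 and 7.35 CPM in Ler, against 0.0360, 0.0420 and 0.0380 CPM in Col and met the on/off rule. Its neighbours in name CYP71B22 and CYP71B20 were at 0 counts in all Col libraries and reached 1.74, 0.882 and 0.657 and 0.758, 0.240 and 0.350 CPM in Ler. The CYP71B20 call was lost without Ler library 1 (adjusted p = 0.0509). AT3G32047 was at 0 counts in Ler and had 1.87, 0.955 and 1.77 CPM in Col.

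Of the 8 gene classes counted, resistance genes had the largest share called. Of 113 tested NBS-LRR genes, the intracellular receptors of plant immunity, 34 were higher and 25 lower (52.2% called), with a median log2 difference of 0.31 and a median absolute difference of 0.87, against 0.26 for all tested features. AT5G46520, of the TIR class and with 1 near-identical copy, had 0.0380, 0.04 and 0.0440 CPM in Ler, against 16.6, 11.1 and 13.8 CPM in Col. AT4G10780 was at 0 counts in Ler and had 1.37, 0.913 and 1.08 CPM in Col, whereas AT4G27190 had 1.14, 0.761 and 1.71 CPM in Ler and 0 counts in Col. Each of these 3 genes was thus near or at 0 in an ecotype.

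F-box genes, which choose proteins for degradation, had 31 higher and 18 lower of 185 tested (26.5%, against 15.8% of all tested). Those with the largest differences were AT5G56380, AT5G56370 and AT5G42460, lower in Ler, and AT5G44220, with 0.379, 0.361 and 0.569 CPM in Ler and 0 counts in Col. Receptor-like kinases and proteins had 16 higher and 12 lower of 132 (21.2%, against the same 15.8%). Among them SERK5, a co-receptor kinase of the SERK family, was at 0 counts in Ler and at 14.1 ± 1.59 CPM (SD, n = 3) in Col, at least 116-fold lower in Ler. CRK41, a cysteine-rich receptor kinase, had 0.492, 0.962 and 0.569 CPM in Ler, against 0.0720, 0 and 0.0770 CPM in Col (log2 difference 3.603 ± 0.80). Defensin-like genes had 4 higher of 12 (33.3%, against 8.57% of all tested called higher). Among them were AT4G22235 with 52.5, 66.0 and 46.0 CPM in Ler, against 22.8, 27.2 and 24.8 CPM in Col (log2 difference 1.14 ± 0.25, adjusted p = 0.00539) and AT4G22230 with 17.3, 13.2 and 19.0 CPM in Ler, against 4.93, 7.01 and 5.88 CPM in Col (log2 difference 1.47 ± 0.24, adjusted p = 3.91e-04). Without Ler library 1 the defensin-like genes called higher were 2, and the block called 2 lower besides the 4 higher. Peroxidase genes had 2 higher and 5 lower of 81 (8.64%, below the 15.8% of all tested), and the block called 13 higher and 10 lower. Leaving out any of the 6 libraries in turn gave 1 to 4 higher. Pentatricopeptide repeat genes, which act on organelle RNA, had 12 higher and 9 lower of 243, also 8.64%. Their count lower was 5 to 14 as each library was left out and 17 with the block.

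Of 22 small RNA and DNA methylation genes 5 were higher and 4 lower in Ler (40.9% called, against 15.8% of all tested). DCL1, the Dicer that cuts microRNAs, had 121, 110.3 and 118 CPM in Ler, against 48.1, 51.8 and 45.2 CPM in Col (log2 difference 1.27 ± 0.09, adjusted p = 8.70e-08). SGS3, which works with RNA-dependent polymerase in making secondary small RNAs, had 28.9, 30.7 and 29.2 CPM in Ler, against 7.10, 6.81 and 6.84 CPM in Col (log2 difference 2.098 ± 0.14, adjusted p = 3.67e-08). Replicates of these 2 genes hardly varied, and the ecotypes did not overlap. DCL2 (log2 difference 0.70 ± 0.18) and DCL4 (log2 difference 0.46 ± 0.15), the Dicers of antiviral and trans-acting small RNAs, and RDR1 (log2 difference 1.302 ± 0.30), a virus-responsive RNA polymerase, were higher too. Without Ler library 2 the members called higher were 3, and likewise 3 without Col library 2. The DCL2 call was lost without Ler library 2 or without Col library 2 (adjusted p up to 0.0687). The DCL4 call was lost without Ler libraries 1, 2 or 3 or without Col libraries 1 or 2 (adjusted p up to 0.180).

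Other components were lower. AGO1, the main microRNA effector, had 223, 214 and 218 CPM in Ler, against 279, 268 and 289 CPM in Col (log2 difference -0.35 ± 0.08, adjusted p = 0.00578). HYL1, the double-stranded RNA-binding partner of DCL1, was at log2 difference -0.73 ± 0.15 (adjusted p = 0.00387), the Pol IV subunit NRPD1 at log2 difference -0.97 ± 0.20 (adjusted p = 0.00317) and the CHG methyltransferase CMT3 at log2 difference -0.50 ± 0.14 (adjusted p = 0.0225). DCL3, which makes heterochromatic small RNAs, had 8.22, 5.65 and 6.21 CPM in Ler, against 9.44, 7.89 and 10.0 CPM in Col (log2 difference -0.44 ± 0.18, adjusted p = 0.118), and the CG methyltransferase MET1 had 69.1, 67.5 and 56.9 CPM in Ler, against 73.9, 77.9 and 73.9 CPM in Col (log2 difference -0.22 ± 0.11, adjusted p = 0.193). Neither passed. The CMT3 call was lost without Ler libraries 2 or 3 or without Col libraries 1 or 3 (adjusted p up to 0.0983).

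Phosphate-starvation genes were higher in Ler at 2 h or did not pass. Of 33 tested genes 11 were called higher (33.3%, against the 8.57% background of higher calls) and 0 lower (2 at an unadjusted p under 0.05, and 0 by DESeq2), and 27 of the 33 had a positive log2 difference. The list median was 0.54, against -0.0002 over all tested features. As this list was chosen with earlier results of these data known, its excess is a description only. The count depended on single libraries: it was 6 without Ler library 1, 7 without Ler library 3 and 6 without Col library 2, while without Ler library 2 it was 12 with 1 lower. With the replicate block 18 were higher and 2, PHT1;1 and ALMT1, were lower.

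Among transporters, PHT1;2, a plasma membrane phosphate importer with 1 near-identical copy, had 193, 85.4 and 206 CPM in Ler, against 59.0, 40.1 and 53.4 CPM in Col (log2 difference 1.67 ± 0.37, adjusted p = 0.00520). PHT1;4, another importer, had 149, 88.8 and 129 CPM in Ler, against 48.0, 61.4 and 71.4 CPM in Col (log2 difference 1.02 ± 0.31, adjusted p = 0.0345). For both, every Ler library lay above every Col library. The PHT1;4 call was lost without Ler libraries 1 or 3 or without Col libraries 1 or 2 (adjusted p up to 0.119). PHT1;1, the most abundant of the 3 and also with 1 near-identical copy, had 356, 153 and 336 CPM in Ler, against 505, 388 and 453 CPM in Col (log2 difference -0.67 ± 0.33, adjusted p = 0.199, and adjusted p = 0.00845 with the replicate block). Reads may be divided between PHT1;1 and PHT1;2, so that their opposite signs are uncertain. PHT1;8, a phosphate transporter outside the list, met the on/off rule at 2 h and was named after its values were seen. It drew 92, 49 and 40 counts in Ler and 3, 0 and 3 in Col, a ratio of 31.7 (14.3 to 87.4). PHT1;8 did not meet the rule at 0 h or 1 h, which does not by itself show a change. The ecotypes did not overlap for PHT1;1 but did for PHO1. PHO1, which loads phosphate into the xylem, had 288, 158 and 245 CPM in Ler, against 181, 89.0 and 133 CPM in Col (log2 difference 0.78 ± 0.26, adjusted p = 0.0585, and adjusted p = 0.00237 with the block).

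Of the noncoding decoys of miR399, AT4 (AT5G03545) had 304, 162 and 228 CPM in Ler, against 85.0, 69.6 and 80.4 CPM in Col (log2 difference 1.56 ± 0.35, adjusted p = 0.00531). IPS1, the better known decoy, was low, with 6.402, 2.56 and 2.76 CPM in Ler, against 1.95, 0.581 and 1.57 CPM in Col (log2 difference 1.51 ± 0.53, adjusted p = 0.0685). The SPX sensor SPX2 had 34.4, 25.1 and 29.7 CPM in Ler, against 20.5, 22.3 and 21.9 CPM in Col (log2 difference 0.46 ± 0.15, adjusted p = 0.0494). Every Ler library of these 3 genes lay above every Col library. The SPX2 call was lost without Ler libraries 1 or 3 or without Col libraries 1, 2 or 3 (adjusted p up to 0.178). SPX1, a feedback regulator of PHR1, had 61.9, 24.6 and 35.5 CPM in Ler, against 18.6, 15.8 and 19.7 CPM in Col (log2 difference 1.17 ± 0.52, adjusted p = 0.149), with Ler library 1 well above the other Ler libraries. PAP17, a purple acid phosphatase, had 45.7, 24.4 and 42.1 CPM in Ler, against 13.3, 6.89 and 10.8 CPM in Col (log2 difference 1.86 ± 0.46, adjusted p = 0.0104). The PAP17 call was lost without Col library 2 (adjusted p = 0.0546). PAP12, a secreted acid phosphatase, had 132, 96.7 and 114 CPM in Ler, against 77.8, 72.1 and 77.8 CPM in Col (log2 difference 0.59 ± 0.12, adjusted p = 0.00279). SPX1, PAP17 and PAP12 did not overlap between the ecotypes either.

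Genes that free phosphate from lipids and RNA were in the same set. NPC4, the phospholipase C that cleaves membrane phospholipids, had 25.6, 5.53 and 6.04 CPM in Ler, against 1.44, 1.16 and 1.11 CPM in Col (log2 difference 3.32 ± 0.72, adjusted p = 0.00451), with Ler library 1 far above the other Ler libraries and 2.23 to 3.67 as each library was left out. GDPD1, a glycerophosphodiester phosphodiesterase, had 54.0, 36.8 and 42.7 CPM in Ler, against 23.1, 24.3 and 20.4 CPM in Col (log2 difference 0.98 ± 0.24, adjusted p = 0.0113). SQD1, of sulfolipid synthesis, had 22.7, 19.96 and 22.6 CPM in Ler, against 15.1, 12.95 and 16.9 CPM in Col (log2 difference 0.54 ± 0.15, adjusted p = 0.0192). The ecotypes did not overlap in any of these 3. The GDPD1 call was lost without Ler library 1 (adjusted p = 0.0509). The SQD1 call was lost without Ler libraries 1 or 3 or without Col libraries 1 or 2 (adjusted p up to 0.0900). RNS1, a secreted ribonuclease, had 181, 304 and 293 CPM in Ler, against 83.5, 171 and 164 CPM in Col (log2 difference 0.90 ± 0.28, adjusted p = 0.0430), whereas at 0 h it was lower in Ler (log2 difference -1.23, adjusted p = 0.0175). The RNS1 call was lost without Ler libraries 2 or 3 or without Col libraries 1 or 3 (adjusted p up to 0.149).

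LPR1 and ALMT1, of the local route in the apex, had negative differences that did not pass, and ALMT1 passed with the replicate block. LPR1, the ferroxidase that links iron and phosphate in the meristem, had 8.22, 15.03 and 11.3 CPM in Ler, against 15.8, 19.8 and 14.02 CPM in Col (log2 difference -0.52 ± 0.22, adjusted p = 0.126). ALMT1, the malate exporter downstream of STOP1, had 78.2, 56.2 and 77.4 CPM in Ler, against 179, 87.8 and 141 CPM in Col (log2 difference -0.94 ± 0.42, adjusted p = 0.149, and adjusted p = 2.58e-04 with the block). LPR1 overlapped slightly between the ecotypes, and ALMT1 did not.

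**Figure D3:**
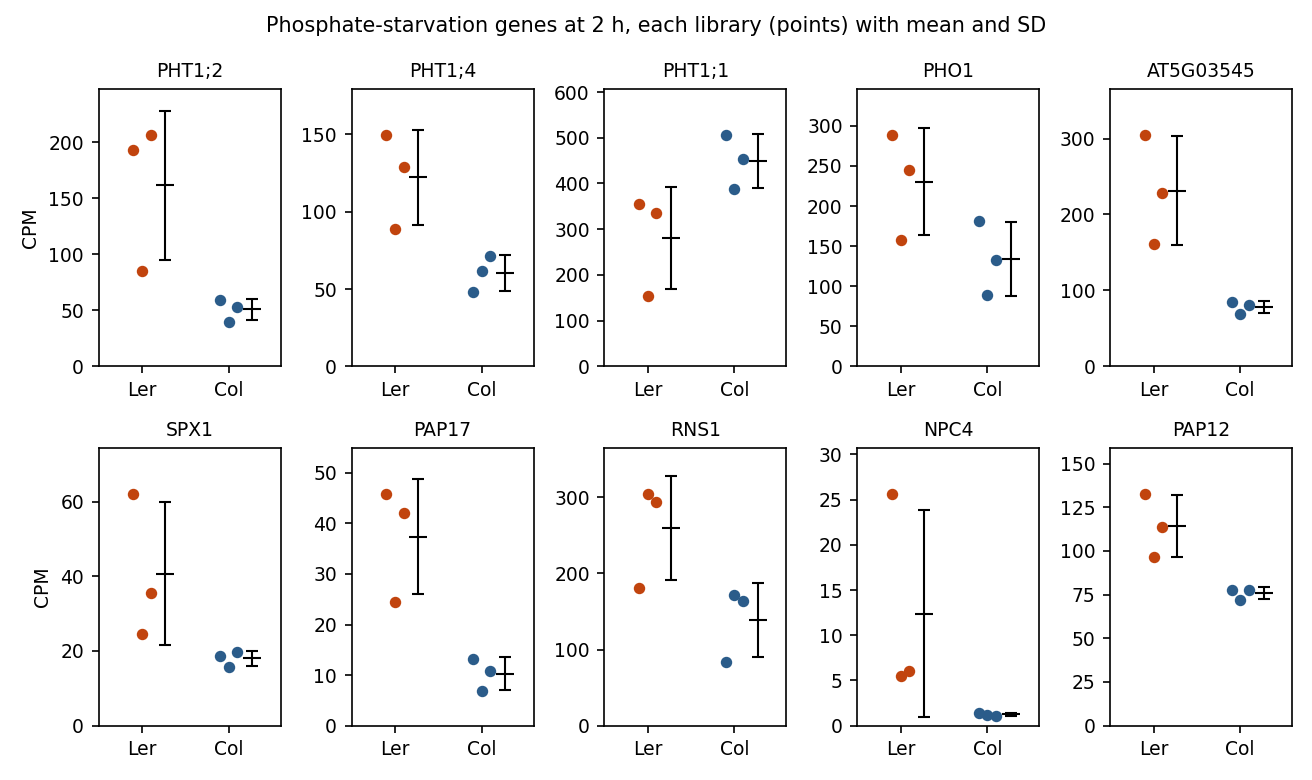
Levels in CPM of 10 phosphate-starvation genes at 2 h, with Ler left of Col, a point for each of the 3 libraries and the mean with its SD beside them. PHT1;1, PHO1 and SPX1 are the panels whose differences did not pass.

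Iron genes called lower in Ler were mainly those of storage. Of 26 tested, 1 was higher and 4 lower (19.2% called, against 15.8% of all tested, median 0.14). The block called 4 higher and 5 lower. Without Ler library 2 the count higher was 2. The ferritins FER2, FER3 and FER4, which store iron in plastids and mitochondria, were lower: FER3 had 72.7, 70.2 and 66.6 CPM in Ler, against 132, 93.3 and 144 CPM in Col (log2 difference -0.82 ± 0.18, adjusted p = 0.00523), and FER2 had 8.56, 11.8 and 8.05 CPM in Ler, against 17.1, 16.6 and 16.9 CPM in Col (log2 difference -0.83 ± 0.20, adjusted p = 0.00816). Every Ler library of both lay below every Col library. FER4 was at log2 difference -0.49 ± 0.15. The FER4 call was lost without Ler libraries 1, 2 or 3 or without Col libraries 1 or 3 (adjusted p up to 0.171). FER1 had 133, 136 and 145 CPM in Ler, against 363, 143 and 308 CPM in Col and did not pass (log2 difference -0.98 ± 0.36, adjusted p = 0.0815), the second Col library lying near the Ler level. FRO3, a mitochondrial ferric reductase, had 39.2, 22.1 and 36.5 CPM in Ler, against 61.5, 68.2 and 56.6 CPM in Col (log2 difference -0.93 ± 0.20, adjusted p = 0.00441). NAS4, a nicotianamine synthase for metal chelation, had 4.89, 3.65 and 5.25 CPM in Ler, against 0.721, 1.25 and 0.653 CPM in Col (log2 difference 2.40 ± 0.48, adjusted p = 0.00260). Neither FRO3 nor NAS4 overlapped between the ecotypes.

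The uptake pair did not pass, and the sign of both rested on a single library. IRT1, the iron importer, had 37.2, 11.9 and 31.3 CPM in Ler, against 10.5, 96.1 and 5.46 CPM in Col (log2 difference -0.48 ± 1.14, adjusted p = 0.826), and FRO2, the root ferric reductase, had 23.9, 10.2 and 24.2 CPM in Ler, against 10.2, 62.1 and 7.22 CPM in Col (log2 difference -0.44 ± 0.93, adjusted p = 0.800). Col library 2 was far above the other 2 Col libraries in both. Without it the log2 differences were 1.76 for IRT1 and 1.18 for FRO2, and with the replicate block they were 0.90 for IRT1 (adjusted p = 0.459) and 0.44 for FRO2 (adjusted p = 0.685). FIT, the bHLH factor that drives both, had 98.7, 57.5 and 121 CPM in Ler, against 58.0, 41.6 and 58.9 CPM in Col (log2 difference 0.81 ± 0.27, adjusted p = 0.0573, and adjusted p = 0.0148 with the block).

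Nitrate genes had 1 of 18 called, higher in Ler (5.56%, below the 15.8% of all tested), and without Ler library 2 another was lower. NRT3.1, the partner protein of high-affinity nitrate transporters, had 133, 168 and 175 CPM in Ler, against 68.3, 75.8 and 77.6 CPM in Col (log2 difference 1.103 ± 0.24, adjusted p = 0.00439). NRT2.1, the transporter it serves, had 38.0, 17.7 and 55.4 CPM in Ler, against 26.0, 17.39 and 22.8 CPM in Col (log2 difference 0.74 ± 0.70, adjusted p = 0.526), and its ecotypes overlapped.

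Among hormone and stress genes, jasmonate had 2 higher and 1 lower of 24 (12.5% called, below the 15.8% of all tested, median 0.30). AOC1, an allene oxide cyclase of jasmonate synthesis, had 5.04, 4.85 and 5.12 CPM in Ler, against 0.360, 0.249 and 0.461 CPM in Col (log2 difference 3.79 ± 0.81, adjusted p = 0.00405). LOX4, a lipoxygenase of the same route, had 4.13, 3.33 and 3.94 CPM in Ler, against 1.01, 1.74 and 1.19 CPM in Col (log2 difference 1.53 ± 0.49, adjusted p = 0.0461). The LOX4 call was lost without Ler libraries 1, 2 or 3 or without Col libraries 1, 2 or 3 (adjusted p up to 0.142). VSP1, a jasmonate-inducible storage protein, had 0.682, 0.120 and 0.131 CPM in Ler, against 3.49, 6.31 and 2.54 CPM in Col (log2 difference -3.67 ± 0.76, adjusted p = 0.00330), with -4.97 to -3.21 as each library was left out. The ecotypes did not overlap in these 3 genes. CBF3, a cold-response activator, was the 1 of 16 early stress genes called (6.25%, below the 15.8% of all tested). It had 0.0760, 0.0800 and 0.0880 CPM in Ler, against 0.793, 0.415 and 0.615 CPM in Col (log2 difference -2.84 ± 0.57, adjusted p = 0.00258), all below 1 CPM. With the block 2 early stress genes were higher and 3 lower.

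Auxin conjugation genes differed in sign, and 2 of 29 auxin genes were called (6.9%, below the 15.8% of all tested). These were GH3.3, higher (2.31, 1.92 and 2.50 CPM in Ler, against 0.937, 0.789 and 0.269 CPM in Col, log2 difference 1.74 ± 0.53, adjusted p = 0.0354), and GH3.5, lower (13.8, 18.6 and 17.6 CPM in Ler, against 22.7, 26.2 and 20.5 CPM in Col, log2 difference -0.47 ± 0.14, adjusted p = 0.0379). The GH3.3 call was lost without Ler libraries 1 or 3 or without Col libraries 2 or 3 (adjusted p up to 0.125). The GH3.5 call was lost without Ler libraries 1 or 3 or without Col libraries 1 or 2 (adjusted p up to 0.186). Of 21 clock genes 1 was called (4.76%, below the 15.8% of all tested), and 5 with the block, all higher in Ler. PRR3, a pseudo-response regulator, had 20.5, 15.5 and 21.3 CPM in Ler, against 9.80, 5.73 and 9.95 CPM in Col (log2 difference 1.17 ± 0.32, adjusted p = 0.0209). The PRR3 call was lost without Ler libraries 1 or 3 or without Col library 2 (adjusted p up to 0.0954). LHY, the morning clock factor, had 25.8, 135 and 23.9 CPM in Ler, against 6.59, 39.3 and 6.11 CPM in Col (log2 difference 1.84 ± 1.21, adjusted p = 0.346), with the second library of each ecotype above the other 2. Taken within replicate numbers, Ler was higher in each pair and the block gave adjusted p = 1.76e-06. CCA1, its close homolog, had 10.3, 27.01 and 8.23 CPM in Ler, against 2.59, 22 and 5.11 CPM in Col and showed the same high second libraries (log2 difference 0.62 ± 0.99, adjusted p = 0.726, and adjusted p = 0.0431 with the block).

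Few genes of root cell types passed. GL2 was the 1 of 13 root hair genes called (7.69%, below the 15.8% of all tested). Another was higher without Ler library 2, and 2 with the block. GL2, the homeobox repressor of root hair fate in non-hair cells, had 24.6, 16.1 and 20.5 CPM in Ler, against 33.8, 34.1 and 29.7 CPM in Col (log2 difference -0.67 ± 0.21, adjusted p = 0.04005). The GL2 call was lost without Ler libraries 2 or 3 or without Col libraries 1, 2 or 3 (adjusted p up to 0.135). EXPA7, a root hair expansin, had 75.0, 64.7 and 113 CPM in Ler, against 125, 112 and 117 CPM in Col (log2 difference -0.49 ± 0.21, adjusted p = 0.139), and its ecotypes overlapped. Summed markers of non-hair cells, GL2 among them, were at 33.7 to 40.5 CPM in Ler, against 53.5 to 56.0 CPM in Col, and their part in other differences was not tested. Mitotic genes had 2 lower of 16 (12.5%, against 15.8% of all tested in either direction and 7.21% lower). CDKB1;2, a mitotic kinase, had 2.69, 3.77 and 2.67 CPM in Ler, against 9.37, 7.72 and 12.6 CPM in Col (log2 difference -1.70 ± 0.30, adjusted p = 9.02e-04). KNOLLE (SYP111), the syntaxin of the cell plate, had 33.0, 30.4 and 29.0 CPM in Ler, against 39.2, 36.9 and 43.3 CPM in Col (log2 difference -0.37 ± 0.12, adjusted p = 0.0438). The KNOLLE call was lost without Ler libraries 1, 2 or 3 or without Col libraries 1, 2 or 3 (adjusted p up to 0.167). CYCB1;1, a mitotic cyclin, did not pass (11.6, 12.3 and 8.75 CPM in Ler, against 13.4, 13.8 and 13.3 CPM in Col, log2 difference -0.31 ± 0.17, adjusted p = 0.244). Plasma membrane aquaporins had 2 lower of 13, or 15.4% (1 to 3 as each library was left out). Of all tested features 15.8% were called in either direction and 7.21% lower. PIP2;6 had 3.41, 4.37 and 2.80 CPM in Ler, against 9.15, 11.5 and 7.72 CPM in Col (log2 difference -1.42 ± 0.27, adjusted p = 0.00142) and PIP2;4 had 75.0, 84.1 and 119 CPM in Ler, against 140.3, 188 and 126 CPM in Col (log2 difference -0.71 ± 0.19, adjusted p = 0.0154). The ecotypes did not overlap in either. The PIP2;4 call was lost without Ler libraries 1 or 2 or without Col library 2 (adjusted p up to 0.117).

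No member was called in 8 lists: flavonoid synthesis, sulfate, heat shock, stem cell and patterning, type-A cytokinin regulators, Casparian strip, ERECTA receptors, and xylem and phloem markers. By edgeR 3 of their 66 tested genes had an unadjusted p under 0.05, DESeq2 called 0 and the replicate block 3. In the stem cell list 1 was higher without Ler library 3, and likewise 1 without Col library 2. ERECTA itself, which carries a point mutation in Ler, had 2.16, 3.85 and 1.36 CPM in Ler, against 2.63, 2.82 and 2.61 CPM in Col (log2 difference -0.13 ± 0.41, adjusted p = 0.873). WOX5, of the quiescent centre, had 7.05, 6.73 and 7.53 CPM in Ler, against 2.85, 6.23 and 3.15 CPM in Col (log2 difference 0.80 ± 0.35, adjusted p = 0.142). ERECTA overlapped between the ecotypes and WOX5 did not. Of the shoot and leaf markers, 1 of 7 was called (14.3%, against 15.8% of all tested). This was RBCS1A, a Rubisco small subunit, with 16.8, 6.57 and 12.3 CPM in Ler, against 3.17, 2.03 and 2.46 CPM in Col (log2 difference 2.22 ± 0.54, adjusted p = 0.00965). With the block 4 of the 7 were higher and DESeq2 called 2. Of the 7, 6 had a positive difference, and the median over all 7 was 0.77. The part of leaf-type RNA in other differences was not tested.

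Ribosomal protein genes had mostly negative differences that did not pass. Of 317 tested, 294 had a negative log2 difference and the median was -0.34, while 3 were called higher and 31 lower. These are 10.7% of the class, against 15.8% of all tested features in either direction. Of all tested features 8.57% were called higher and 7.21% lower, so the class was not short of lower calls. With the replicate block 4 were higher and 82 lower, against 2867 higher and 2433 lower among all 20599 tested features. Their summed level was 45647 to 65457 CPM in Ler, against 67285 to 83886 CPM in Col. Without Ler library 3 the count lower was 16, and without Col library 2 it was 17. At 0 h the class median was 0.25, with 20 higher and 9 lower. Among those lower, PSRP6, a plastid ribosomal protein, had 3.45, 3.21 and 3.06 CPM in Ler, against 21.98, 19.8 and 19.9 CPM in Col (log2 difference -2.66 ± 0.17, adjusted p = 2.46e-08).

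**Figure D4:**
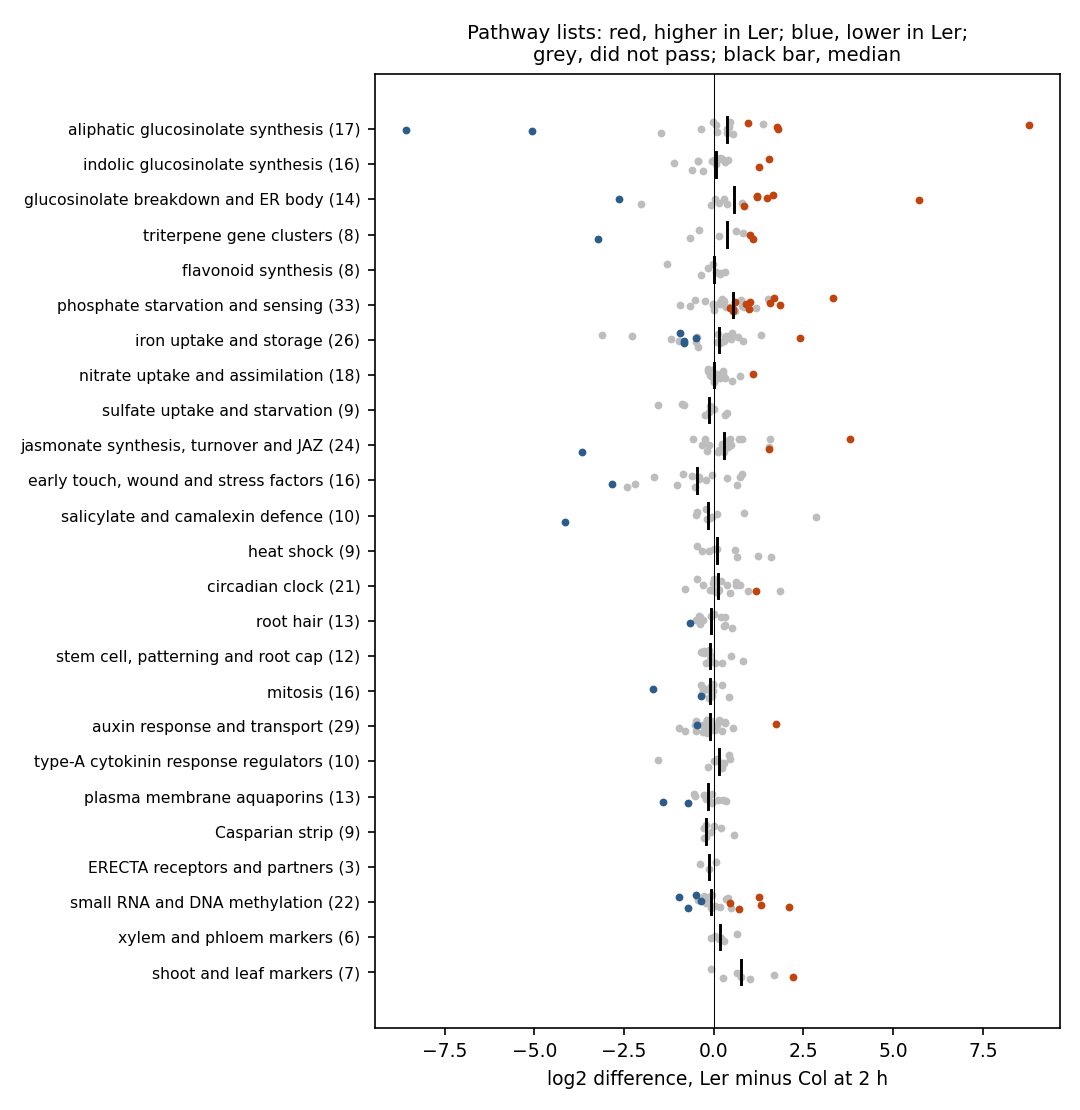
Each row is a pathway list with its number of tested genes, and each point is a gene's log2 difference of Ler over Col at 2 h. Coloured points passed the test (red higher, blue lower in Ler) and grey points did not. The black bar is the list median, which is 0.54 for phosphate starvation and not the highest there.

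Differences at 2 h were set beside those at the earlier times, where 17.7% of tested features were called at 0 h and 14% at 1 h. Of the 3068 graded features, 1636 (53.3%) were called in the same direction at 0 h and 1753 (57.1%) at 1 h, and 1463 (47.7%) at both. Another 1138 (37.1%) were called at neither, 626 higher and 512 lower, with a median absolute log2 difference of 0.71, against 1.54 for those called at all 3 times. Sign was shared by 90.4% at 0 h and 97.1% at 1 h, and the opposite direction was called for 4 at 0 h (ACR3, RNS1, AT2G45670 and NAP1;4) and for 0 at 1 h. A difference that passed at 2 h and not at 0 h is not thereby shown to have changed. The ecotype by time interaction, which tests that change, called 0 features by edgeR (0%), with 3621 of 20599 at an unadjusted p under 0.05. DESeq2 called 140 and the replicate block 79. The 0 calls by edgeR therefore do not show that no difference changed.

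The values of 4 lists at the 3 times are given as a description, since edgeR called no interaction in any of them, and with the replicate block only 1, in the small RNA list. Phosphate-starvation genes had a median of 0.06 at 0 h (3 higher, 6 lower), 0.22 at 1 h (4 higher, 4 lower) and 0.54 at 2 h (11 higher, 0 lower). Casparian strip genes, which build the endodermal barrier, had -1.07 at 0 h (0 higher, 7 lower), -0.98 at 1 h (0 higher, 6 lower) and -0.21 at 2 h, when none was called. CASP1, which marks the strip, had 161, 115 and 231 CPM in Ler, against 229, 191 and 189.8 CPM in Col at 2 h (log2 difference -0.27 ± 0.31, adjusted p = 0.614), and a log2 difference of -1.29 at 0 h (adjusted p = 0.00912). The lowest adjusted p of an interaction in that list was 0.227, or 0.0573 with the block. Small RNA genes had 6 higher and 2 lower at 0 h, 4 higher and 2 lower at 1 h, and 5 higher and 4 lower at 2 h. Stem cell and patterning genes had 4 higher at 0 h, with a median of 0.62, and none at 2 h, with a median of -0.12.

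**Figure D5:**
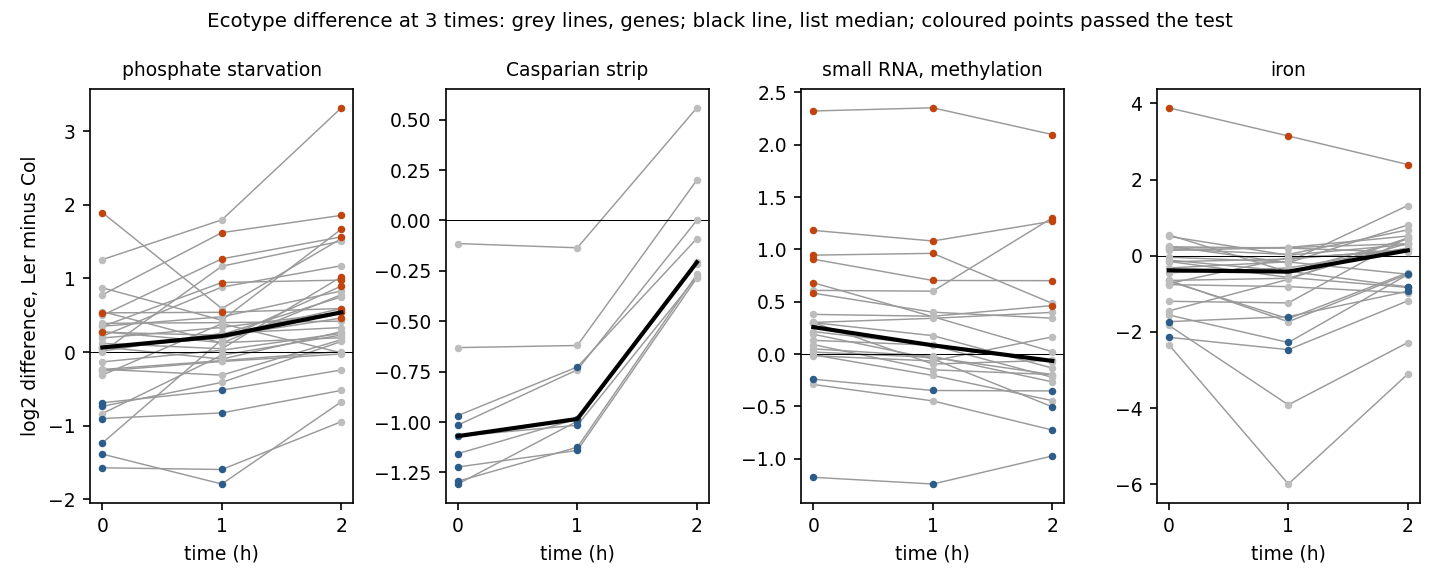
Log2 difference of Ler over Col at 0, 1 and 2 h for the genes of the phosphate starvation, Casparian strip, small RNA and iron lists. Grey lines are genes, the list median is in black and the points that passed the test are coloured. The stem cell list is not drawn. The phosphate-starvation median reaches 0.54 at 2 h, and the Casparian strip median is -1.07 at 0 h and -0.21 at 2 h.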

How the data were processed

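Per the labels' protocols, poly(A) RNA was read in stranded, paired-end libraries, and per the submitters' processing notes TopHat2, Bowtie2 and TAIR10 were used. The counting tool, annotation, strand setting, treatment of multiply aligned reads and the sequence to which Ler reads were aligned are not given in the sources used here. The authors deposited raw counts per feature, whole numbers, for 33602 features in Col files and 32852 in Ler files. The 32852 common features were analysed, and 750 features listed for Col alone (279 chloroplast or mitochondrial, 471 nuclear) were set aside. The labels do not say what equal replicate numbers share, so p-values measure the spread between these samples, which may be technical.

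Counts of all 18 libraries, which share an estimate of the spread, were fitted with edgeR 4.0.16 (R 4.3.3, limma 3.58.1): TMM scaling, a mean per ecotype and time (12 residual degrees of freedom), the default filter on low counts (minimum 10, total 15, leaving 20599 features) and the quasi-likelihood test with Benjamini-Hochberg adjustment at 0.05. SE is the log2 difference over the root of F. Steps were tested on simulated data. Deviations from group means at 2 h correlated between same-numbered Ler and Col libraries (0.394, 0.345 and 0.229, each above 0.1). Differently numbered libraries correlated at -0.443 to 0.124, and Ler 3 with Col 1, at 0.124, also exceeded 0.1. The block fit takes equal numbers to pair the samples. The main calls ignore this pairing, and block values stand beside many, but not all, results they change. Counting intervals (95%) and the floor of 3 counts cover counting error only. No table columns were left unmapped.

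The gene lists and the features described were chosen with earlier results of these data known. Named were the 5 protein-coding on/off features with the highest mean CPM in each direction, the 6 graded features with the largest log2 difference in each direction (mean of at least 5 CPM, no overlap), and up to 4 called and 2 further members per list. Where more of a list are named (NAI2 and further phosphate, iron and small RNA genes), they were chosen after their values were seen, as was the order of genes expressed in both ecotypes. Also named were the 4 graded features called in the opposite direction at 0 h. Gene classes follow the words of RefSeq products. Names, neighbours and near-identical copies (at least 95% identity over at least 50% of the gene) came from RefSeq's TAIR10.1 annotation, matched for 32383 features; no coordinates are given because the builds differ in name. Alternatives were RLE size factors, DESeq2 1.42.0, other filters, thresholds and on/off limits, the 6 libraries alone, the replicate block and leaving out each library. A gene withheld from the text is not reported here.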

Additional observations from a re-analysis of the deposited data

Results flagged for a closer look

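In 6 of the named genes every Ler library lay on one side of every Col library at 0 h and on the other at 2 h. This was so for 171 of the 20599 tested features (0.83%). ACR3, AT2G45670 and NAP1;4 were named for calls in opposite directions at 0 h and 2 h, and RNS1 was called so as well. For these genes the opposite separation is therefore no separate result. The change itself did not pass in edgeR's interaction test (adjusted p = 0.227 for each of the 6 genes). ACR3, of the ACT-domain family, had 191, 198 and 209 CPM in Ler, against 159.9, 154 and 151 CPM in Col at 2 h and 211, 207 and 171 CPM in Ler, against 264, 239.6 and 256 CPM in Col at 0 h, a difference between the times of 0.73 on the log2 scale, with adjusted p = 0.0465 under the replicate block. AT2G45670 had a difference between the times of 0.70 (block adjusted p = 0.0465), with 158, 167 and 194 CPM in Ler, against 134, 127 and 135 CPM in Col at 2 h and 102, 116 and 111 CPM in Ler, against 139, 121 and 147 CPM in Col at 0 h. NAP1;4, of the nucleosome assembly protein family, had a difference between the times of 0.66 (block adjusted p = 0.0530), with 27.8, 29.2 and 32.4 CPM in Ler, against 23.3, 22.9 and 24.7 CPM in Col at 2 h and 20.6, 26.7 and 22.8 CPM in Ler, against 29.8, 27.1 and 31.0 CPM in Col at 0 h. The calls at 2 h were lost without Ler library 3 or without Col libraries 2 or 3 for ACR3 (adjusted p up to 0.0927), and without Ler library 3 for AT2G45670 (adjusted p = 0.0569). The NAP1;4 call was lost without Ler libraries 2 or 3 or without Col libraries 1, 2 or 3 (adjusted p up to 0.162). RNS1, the secreted ribonuclease, had a difference between the times of 2.13 (block adjusted p = 0.0546), with 181, 304 and 293 CPM in Ler, against 83.5, 171 and 164 CPM in Col at 2 h and 1.79, 2.42 and 2.59 CPM in Ler, against 7.44, 3.56 and 5.04 CPM in Col at 0 h. The other 2 were higher in Ler at 0 h. PLT1, a master regulator of the root stem cell niche, had 19.6, 18.9 and 11.8 CPM in Ler, against 19.8, 20.7 and 22.4 CPM in Col at 2 h and 16.2, 15.03 and 20.04 CPM in Ler, against 7.87, 11.9 and 10.0 CPM in Col at 0 h, a difference between the times of -1.10 (block adjusted p = 0.0713). CYCB1;1, the mitotic cyclin, had 11.6, 12.3 and 8.75 CPM in Ler, against 13.4, 13.8 and 13.3 CPM in Col at 2 h and 15.4, 16.3 and 17.9 CPM in Ler, against 10.5, 13.8 and 11.6 CPM in Col at 0 h, a difference between the times of -0.78 (block adjusted p = 0.0653).

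Nuclear features listed for Col alone, which no comparison used, held 9683, 8382 and 9622 counts in Col 2 h libraries 1, 2 and 3, or 0.0348%, 0.0342% and 0.0371% of their counts.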

How the results depend on the processing

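Called features numbered 1811 at 2-fold or more, 5300 with the replicate block and 2228 to 3074 as single libraries were left out; those higher 1118, 2867 and 1269 to 1679, and those lower 693, 2433 and 959 to 1395. Graded features higher were 1044, 2793 and 1195 to 1605 under these settings, and graded features lower 585, 2325 and 851 to 1287, or 882 with the 6 libraries alone. The block called 6202 features at 0 h and 4497 at 1 h, with 2459 and 2641 graded features called in the same direction then. The interaction called 140 by DESeq2, 79 with the block and 0 to 1 as libraries were left out. Requiring 0 counts in the off ecotype left 25 Ler-only and 64 Col-only features; Ler-only features were 119 at 0.5 CPM and 117 at up to 10 counts, and 78 to 82 (Col-only 111 to 119) as libraries were left out. List members called were 35 at 2-fold, 93 with the block, 106 with the block in the 6 libraries alone, and 43 to 55 as libraries were left out. The block kept all 3250 calls. No call shared with another setting changed sign, and RLE factors and DESeq2 kept 98.9% and 99.7% of the calls. Of 124 named features called, 92 stayed called whichever library was left out. Sign reversed only in genes that had not passed: CCA1 (-0.086 to 2.00 as libraries were left out), ER (-0.60 to 0.16), FRO2 (-0.90 to 1.18, 0.44 with the block and 0.24 with the block in 6 libraries) and IRT1 (-0.996 to 1.76, 0.90 and 0.66). The causes were not tested. Leaving out chloroplast and mitochondrial features gave no other value, since none was common to all files. Features at a few counts, such as AOP2 and ESP, are limited by depth.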

Other observations

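Noncoding features were tested in 281 cases, of which 20 were graded higher and 28 graded lower in Ler (17.1% graded) and 12 were on/off. Pseudogenes made up 4.63% of graded features, against 1.78% of those tested. The highest on/off feature of Ler was a pseudogene, AT1G44510, at a mean of 79.7 CPM in Ler, and the highest of Col was AT2G06950, at 85.8 CPM in Col. Near-identical copies were present for 4.34% of graded features and for 2.25% of those with at least 1 CPM in all 6 libraries, against 1.6% of tested features.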
